A study of Mus musculus with 6 samples.

Results

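The Notch pathway was examined through 10 genes, the receptors *Notch1*, *Notch2*, *Notch3* and *Notch4*, the ligands *Dll4*, *Jag1* and *Jag2*, and the targets *Hey1*, *Heyl* and *Hes1*. They were taken by name from a table of 24080 genes, by matching Ensembl identifiers to the symbols of the GENCODE M21 annotation. The matching uses no expression value, but these genes and the lists below were chosen with earlier results of these data known. Their counts beside those of all genes are therefore descriptive only. The cells were mouse endothelial cells (ECs) differentiated from embryonic stem cells in which both copies of *VEC*, the gene of vascular endothelial cadherin, carry a null mutation. VEC-null cells are that line, and VEC-positive cells are the same line after retroviral transfer of wild-type *VEC*, so both groups carry the null mutation. A stranded kit was used to make 3 libraries from total RNA of each, which the study calls biological replicates, while the labels do not say whether they came from separate cultures. The p-values therefore measure the spread between libraries. Each genotype is a single line, so an effect of VEC and any other difference between the lines cannot be told apart.

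*Cdh5* (ENSMUSG00000031871), which encodes VEC, ran against the labels. The libraries labelled VEC-null held 1334, 1439 and 1689 normalized counts of it, and those labelled VEC-positive 794.3, 739.4 and 749.7. Its log2 fold change, VEC-positive over VEC-null as in all that follow, was -0.96 (standard error [SE] 0.098, adjusted p = 0.000182 from limma). A pair of endothelial markers ran the other way by label. *Cldn5*, a tight junction protein of endothelium, was at 9.18, 5.51 and 4.43 normalized counts in VEC-null, against 429.2, 512.4 and 434.1 in VEC-positive (log2 fold change 6.01, adjusted p = 2.14e-06 from limma). *Ptprb*, the phosphatase VE-PTP, was at 5846, 5447 and 6243 in VEC-null, against 21170, 20957 and 22559 in VEC-positive (1.88, adjusted p = 3.08e-06 from limma). Both are genes that the study treats as induced by VEC, so they ran with the labels and *Cdh5* against them. The study chose *Ptprb* on these libraries, so its direction here is not independent evidence, whereas *Cldn5* was known from its authors' earlier work. *Ptprb* was also measured by quantitative PCR in the study, which followed it up by further experiments, among them chromatin immunoprecipitation at its start site. The identity of each library stays unresolved by these values. Since gene-level counts do not tell a null transcript from a transferred one, every direction below is that of the labels. Each library held 6036155 to 14136376 recovered reads, of which mitochondrial transcripts took 9.62% to 14.9% in the VEC-null and 17.97% to 24.18% in the VEC-positive libraries. VEC-null 3 lay away from the other libraries of its group, at a chi-square per gene of 50.5 from VEC-null 1 and 48.6 from VEC-null 2, which were 6.57 from each other. Of 15 endothelial markers, all were tested, and 10 were higher and 1 lower in VEC-positive. Among all tested genes 20.9% were higher and 16.4% lower. The marker list includes *Cldn5* and *Ptprb*. Its summed normalized counts were 59076 to 61908 in VEC-null and 96240 to 98939 in VEC-positive, with *Ptprb* at means of 5846 and 21562.

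Notch receptors are membrane proteins that are cut when a neighbouring cell presents a ligand, first by an ADAM protease and then by gamma-secretase. The released intracellular domain joins the DNA-binding protein RBPJ (CSL) and a Mastermind coactivator in the nucleus, where genes of the Hes and Hey families of transcriptional repressors are the best known targets. In blood vessels the pathway is known for arterial identity and for the choice between tip and stalk cells during sprouting, in which DLL4 activates Notch and JAG1 can oppose it.

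The regions upstream of *Dll4*, which was lower in VEC-positive, and of *Jag1* and *Notch3*, which were higher, are shown because they are the ligands and the receptor with the largest changes. RefSeq (GRCm38.p6, the same build as the authors' mm10) lists a promoter for 7 of the 10 genes, and *Hey1*, *Heyl* and *Hes1* have no entry there. Each sequence runs 5′ to 3′ on the strand of its gene and ends before the annotated start of the gene, and capitals mark CpG dinucleotides.
Dll4, chr2:119325534-119325783, plus strand: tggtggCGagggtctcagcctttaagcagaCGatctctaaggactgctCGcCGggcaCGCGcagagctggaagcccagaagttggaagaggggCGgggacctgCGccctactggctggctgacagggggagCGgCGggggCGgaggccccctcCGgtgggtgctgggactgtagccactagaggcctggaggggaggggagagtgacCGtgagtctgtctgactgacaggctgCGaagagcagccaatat
Jag1, chr2:137116645-137116770, minus strand: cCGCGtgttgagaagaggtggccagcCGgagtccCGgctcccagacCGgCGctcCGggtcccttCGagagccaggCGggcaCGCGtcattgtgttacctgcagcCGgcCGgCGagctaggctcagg
Notch3, chr17:32166891-32167140, minus strand: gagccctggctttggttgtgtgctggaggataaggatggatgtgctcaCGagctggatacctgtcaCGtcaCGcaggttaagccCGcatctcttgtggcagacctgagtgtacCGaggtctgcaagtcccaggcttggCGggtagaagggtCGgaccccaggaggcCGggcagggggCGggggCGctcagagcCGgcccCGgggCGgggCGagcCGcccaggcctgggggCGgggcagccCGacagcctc
The 250 bases upstream of the RefSeq start held 14 CpGs for *Dll4*, 20 for *Jag1* (of which the 126 bases printed hold 14) and 17 for *Notch3*, where the median of all 32851 promoters in the table was 6. *Jag2* had 54, *Notch2* 34, *Notch1* 16 and *Notch4* 4, so *Notch4* alone among the 7 was below the median. These RefSeq starts are not always those of GENCODE, by which 11 bases of the *Notch2* window, 27 of *Notch4*, 124 of *Jag1* and all 250 of *Jag2* and of *Notch1* lie inside the gene. The RefSeq start used for *Notch1* is 12841 bases downstream of its GENCODE start. The share of promoters with fewer CpGs was 70.6% for *Dll4*, 82.1% for *Jag1* and 76.5% for *Notch3*. The window was also searched on both strands for TGGGAA, the core bound by RBPJ, GTAAACA, a core bound by FoxO proteins, and CTTTGA, a core bound by TCF proteins. These letters were found in 21.6%, 3.17% and 13.8% of all promoters and in 0 of the 7, which says only that they are not in this window, wherever it lies relative to other starts of the gene.

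By label, the ligands exchanged rank and the targets moved in opposite directions. *Jag1* was 2.17-fold higher and *Dll4* 1.85-fold lower in VEC-positive, *Hey1* fell and *Hes1* rose, and among the receptors *Notch3* rose from a low level while *Notch1*, *Notch2* and *Notch4* did not pass the test. Of the 10 genes, 9 reached a normalized count of 10 in 3 or more libraries and were tested in limma together with every other gene that did, 14032 in all. With an adjusted p under 0.05 as the threshold, 3 were higher in VEC-positive (*Notch3*, *Jag1* and *Hes1*), 2 were lower (*Dll4* and *Hey1*) and 4 did not pass. Among all tested genes 37.3% passed, 20.9% higher and 16.4% lower. The groups of 3 libraries did not overlap for 7 of the 9 tested genes, where this held for 50% of all tested genes. The 5 genes that passed are 55.6% of the 9 tested, where the rate of all genes would give 3.36. The median log2 fold change of the 9 was 0.22 against -0.01 for all genes, and the median of its size without sign was 0.43 against 0.39.

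The split depended on scaling. When the libraries were scaled to equal totals instead of the authors' size factors, 2 of the 9 genes were higher (*Notch3* and *Jag1*) and 3 lower (*Dll4*, *Hey1* and *Notch4*), against 11.1% higher and 35.6% lower among all tested genes. Under that scaling the median over all genes was -0.32 on the log2 scale. Without VEC-null 3, with the deposited scaling, 4 were higher, *Notch1* being the addition, and 2 lower. Calls also rose among all 14032 tested genes in that fit, to 3800 higher and 3359 lower, against 2927 and 2304 with every library. Calls gained without VEC-null 3, here and below, are to be read beside that general rise. In bulk RNA, fewer cells of a type and less RNA per cell cannot be told apart.

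**Figure D1:**
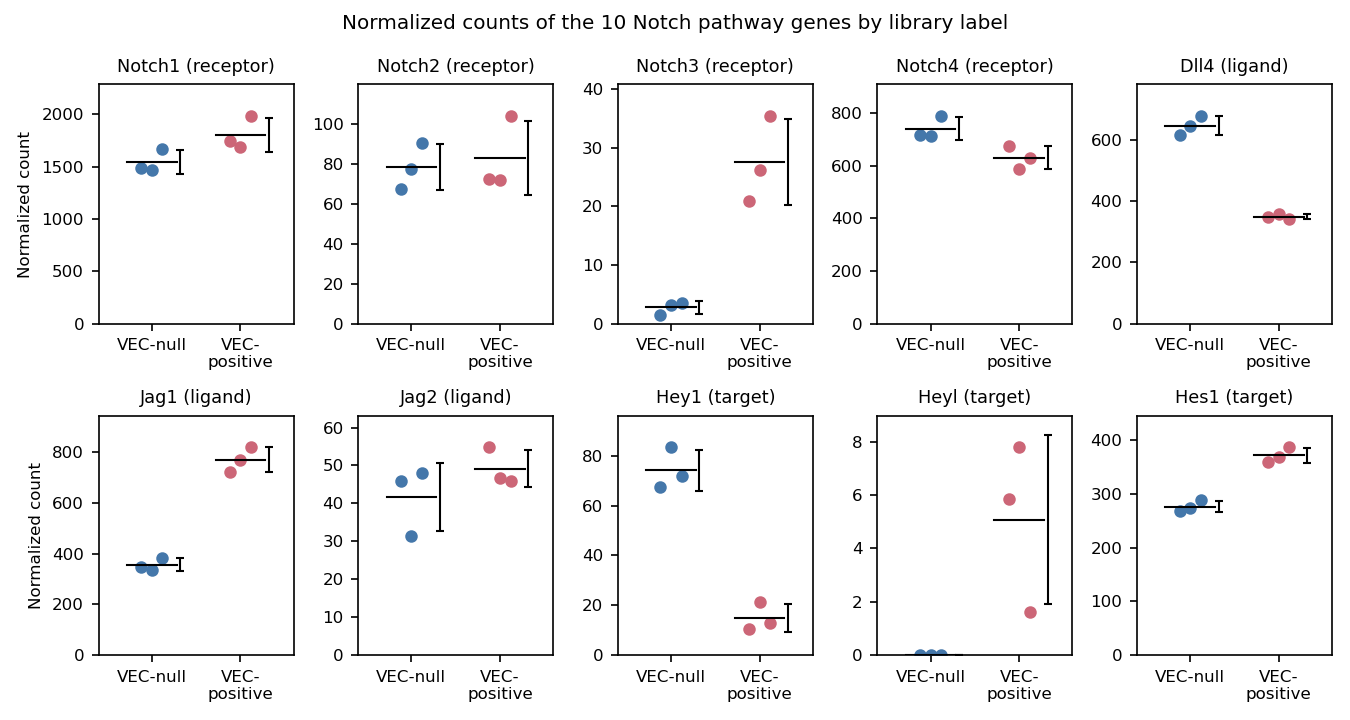
Normalized counts (y axis, from 0, a scale for each gene) of the 10 genes in the 6 libraries, grouped by label; each point is 1 library, the line is the mean and the bar is the SD of 3 libraries. The points of *Dll4*, *Jag1*, *Hey1*, *Hes1* and *Notch3* lie in separate ranges in the 2 groups, and those of *Notch2* and *Jag2* overlap.

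*Notch1* (ENSMUSG00000026923, chromosome 2 from 26457903 to 26516663, minus strand), the main receptor of arterial and sprouting endothelium, was at 1490, 1465 and 1673 normalized counts in VEC-null 1, 2 and 3, against 1741, 1683 and 1987 in VEC-positive 1, 2 and 3. Every VEC-positive library was above every VEC-null library, with VEC-null 3 just below VEC-positive 2. The log2 fold change was 0.22 (95% interval 0.01 to 0.44) and did not pass (adjusted p = 0.0898 from limma). Without VEC-null 3 it passed (0.28, adjusted p = 0.0171 from limma), and with equal totals its sign turned (-0.09). That value was still above the median of all genes in the same scaling. Exons of *0610009E02Rik*, an RNA gene on the opposite strand, share 1068 bases with *Notch1*, and it was at 0.89 to 9.74 normalized counts over the 6 libraries.

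*Notch4* (ENSMUSG00000015468, chromosome 17 from 34564268 to 34588503, plus strand) is a receptor found mostly in endothelium. Its normalized counts were 717.6, 715.1 and 790.8 in VEC-null, against 674.2, 588.4 and 631.0 in VEC-positive, so the groups did not overlap and the order was the reverse of that of *Notch1*. The log2 fold change of -0.23 (95% interval -0.43 to -0.03) did not pass with the deposited scaling (adjusted p = 0.0664 from limma). It passed in 4 of 18 alternatives, among them edgeR on recovered reads (-0.25, adjusted p = 0.0482) and equal totals (-0.54, adjusted p = 0.00229 from limma).

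*Notch3* (ENSMUSG00000038146, chromosome 17 from 32120820 to 32166852, minus strand) is best known as the receptor of mural cells, the pericytes and smooth muscle cells around vessels. It was at 1.53, 3.15 and 3.55 normalized counts in VEC-null, against 20.99, 26.30 and 35.51 in VEC-positive, so the lowest VEC-positive library was well above the highest VEC-null library. This rise had a log2 fold change of 2.95 (SE 0.41, adjusted p = 0.000886 from limma) and passed in all 17 alternatives in which the gene was tested. It rested on 9 VEC-null and 89 VEC-positive reads, or a ratio of 9.66 whose 95% interval from counting error alone was 4.87 to 21.8.

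Some markers of mural cells also differed between the groups. Of 15 listed, 12 were in the table and 5 tested, with *Pdgfrb* and *Mcam* higher, *Abcc9* lower and *Acta2* and *Myh11* not past the test. Among all tested genes 20.9% were higher and 16.4% lower. The summed normalized counts of the list were 3828 to 4016 in VEC-null and 6007 to 6841 in VEC-positive. *Pdgfrb*, the receptor for platelet-derived growth factor B, was at 1.53, 0 and 1.77 in VEC-null, against 95.64, 117.9 and 102.5 in VEC-positive, or 3 reads against 330 (ratio 107, 95% counting interval 36.5 to 524). *Abcc9*, a subunit of a potassium channel of pericytes and smooth muscle, ran the other way, at 67.32, 74.81 and 96.64 in VEC-null, against 2.33, 2.92 and 9.68 in VEC-positive (log2 fold change -3.94, SE 0.46, adjusted p = 0.000366 from limma). *Acta2*, smooth muscle actin, was at 29.07, 21.26 and 7.98 in VEC-null, against 8.17, 3.9 and 13.72 in VEC-positive. *Cnn1*, calponin of smooth muscle, had 12 VEC-null reads and 0 VEC-positive reads. The list thus held changes of both signs. *Mcam*, which endothelial cells also express, made up most of the sum. Of the other defining markers, *Rgs5* was at 0 to 6.30 over the 6 libraries, and *Cspg4* was not among the 12 that were in the table. *Myh11*, a smooth muscle myosin, was at 13.77, 18.11 and 0.89 in VEC-null, against 23.33, 18.51 and 23.40 in VEC-positive. It was not past the test (log2 fold change 1.48, adjusted p = 0.189 from limma). The part of mural cells in the values of *Notch3* was not tested.

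*Notch2* (ENSMUSG00000027878, chromosome 3 from 98013527 to 98150361, plus strand), a receptor shared by many cell types, was at 67.32, 77.18 and 90.43 in VEC-null, against 72.32, 72.09 and 104.1 in VEC-positive. These ranges overlapped. The log2 fold change was 0.07 with a 95% interval of -0.40 to 0.54 (adjusted p = 0.816 from limma), which leaves room for a change of either sign.

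Among the ligands, *Dll4* and *Jag1* moved in opposite directions with little spread within either group. *Dll4* (ENSMUSG00000027314, chromosome 2 from 119325784 to 119335962, plus strand), the delta-like ligand of arterial and tip cells, had 615.1, 645.0 and 679.1 normalized counts in VEC-null, against 348.7, 356.5 and 340.5 in VEC-positive. The VEC-positive libraries lay within a few percent of each other and all below the VEC-null libraries. The means were 646.4 ± 32.1 in VEC-null, against 348.6 ± 8.0 in VEC-positive (SD, n = 3 each), a fall with a log2 fold change of -0.89 (SE 0.08, adjusted p = 9.38e-05 from limma). *Gm14207*, an RNA gene on the opposite strand whose exons share 214 bases with *Dll4*, was at 24.49 to 58.14 normalized counts over the 6 libraries, and since the strand setting of the counting is not given, reads of that stretch cannot be told apart.

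*Jag1* (ENSMUSG00000027276, chromosome 2 from 137081456 to 137116644, minus strand), a ligand of the jagged type, was at 347.3, 333.9 and 383.9 in VEC-null, against 723.2, 768.6 and 819.1 in VEC-positive. Its lowest VEC-positive library was far above its highest VEC-null library. Against a VEC-null mean of 355.0 ± 25.9 (SD, n = 3), the VEC-positive mean was 770.3 ± 48.0 (SD, n = 3), a rise with a log2 fold change of 1.12 (SE 0.09, adjusted p = 6e-05 from limma). Both *Dll4* and *Jag1* passed in all 18 alternatives, with log2 fold changes of -1.20 and 0.81 when totals were made equal.

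*Jag2* (ENSMUSG00000002799, chromosome 12 from 112907819 to 112929776, minus strand), the second jagged ligand, was low, at 45.90, 31.50 and 47.88 in VEC-null, against 54.82, 46.76 and 46.00 in VEC-positive. The ranges overlapped, and the log2 fold change of 0.25 (95% interval -0.28 to 0.78) did not pass (adjusted p = 0.423 from limma). It was -0.05 with equal totals.

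Of the targets, *Hey1* (ENSMUSG00000040289, chromosome 3 from 8663359 to 8667256, minus strand), a repressor induced by Notch in arterial endothelium, had 67.32, 83.48 and 71.81 normalized counts in VEC-null, against 10.50, 21.43 and 12.91 in VEC-positive. Even the highest VEC-positive library, VEC-positive 2, was far below the lowest VEC-null library. The fall had a log2 fold change of -2.29 (SE 0.29, adjusted p = 0.000575 from limma) and passed in all 18 alternatives. It rested on 231 VEC-null and 47 VEC-positive reads (ratio 0.199, 95% counting interval 0.142 to 0.273). The study singled out *Hey1* on these libraries, so its direction here is not independent evidence. It also measured *Hey1* by quantitative PCR, among the genes it lists as repressed by VEC, and reports that overexpression of the Polycomb protein Suz12 induced *Hey1*.

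*Hes1* (ENSMUSG00000022528, chromosome 16 from 30064384 to 30067796, plus strand), a repressor that also answers to signals other than Notch, was at 267.8, 273.3 and 288.1 in VEC-null, against 360.4, 369.2 and 387.3 in VEC-positive. The 2 groups were tight and separate. *Hes1* rose 1.35-fold, between means of 276.4 ± 10.5 and 372.3 ± 13.7 (SD, n = 3 each), or 0.43 on the log2 scale (SE 0.09, adjusted p = 0.00583 from limma). The call was lost with equal totals (0.12, adjusted p = 0.287 from limma) and with totals made equal without mitochondrial transcripts (0.28, adjusted p = 0.0535 from limma), both of which kept the sign.

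*Heyl* (ENSMUSG00000032744, chromosome 4 from 123233556 to 123249875, plus strand), a Hey family repressor known from smooth muscle, had 0 reads in each VEC-null library and 5.83, 7.79 and 1.61 normalized counts in VEC-positive. It was below the limit for testing. With a floor of 3 reads over the VEC-null group, the 15 VEC-positive reads put it 4.89-fold higher there. That figure takes no account of counting error in the 15 reads. As for *Notch3*, the part of mural cells in this value was not tested.

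**Figure D2:**
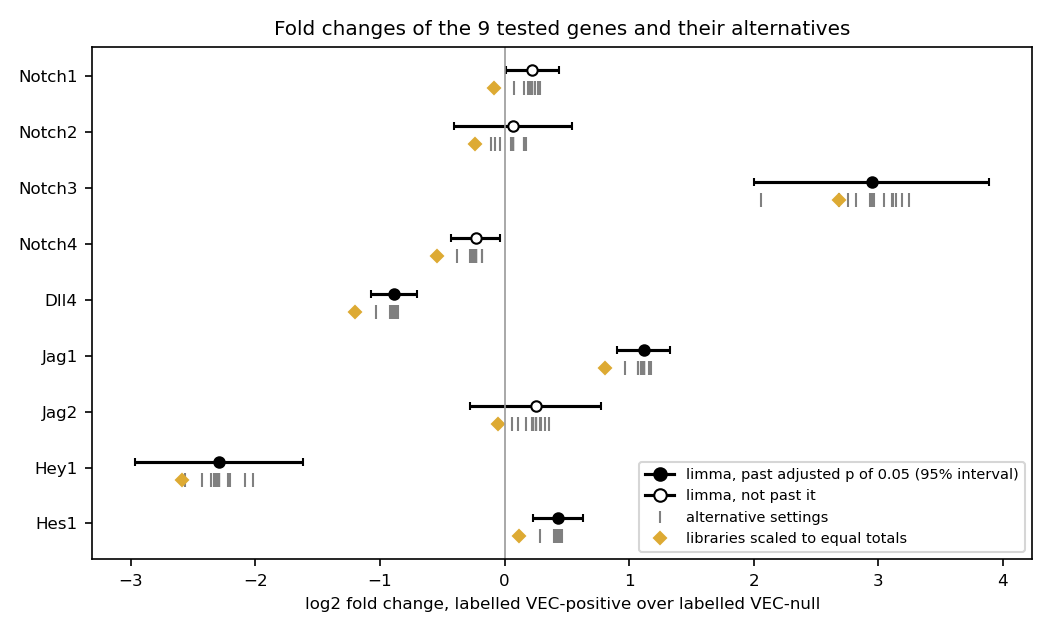
Log2 fold change, VEC-positive relative to VEC-null (x axis), for the 9 tested genes; circles are the limma estimates with 95% intervals, filled where the adjusted p was under 0.05, ticks are the alternative settings and diamonds the libraries scaled to equal totals. *Jag1* and *Notch3* stay to the right of 0 and *Dll4* and *Hey1* to the left in every setting, whereas *Notch1*, *Notch2* and *Jag2* cross 0 with equal totals.

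To compare the genes with each other, normalized counts were divided by the length of their merged exons in kilobases. On this scale *Dll4* had the highest mean level in VEC-null (168 per kilobase), followed by *Hes1* (136), *Notch1* (108), *Notch4* (91.9), *Jag1* (60.9) and *Hey1* (22.7), and none of these neighbours overlapped in their libraries. *Notch2* (7.26) and *Jag2* (6.0) did overlap, and *Notch3* (0.339) and *Heyl* (0) were last. In VEC-positive the level of *Hes1* was highest (183), *Jag1* (132) and *Notch1* (127) overlapped, *Dll4* (90.5) and *Notch4* (78.3) followed, and *Notch2* (7.68), *Jag2* (7.06), *Hey1* (4.58), *Notch3* (3.41) and *Heyl* (0.993) were low. *Dll4* thus went from above to below *Jag1*, and *Hey1* from above to below *Notch2* and *Jag2*. Dividing by the longest annotated transcript instead put *Hes1* first in VEC-null too (188 against 173 for *Dll4*). In VEC-positive it put *Notch1* (190) above *Jag1* (137) and *Notch4* (95.8) above *Dll4* (93.0) by their means. It also put *Jag2* above *Notch2* in VEC-null (8.18 against 7.46) and in VEC-positive (9.63 against 7.89).

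Shares within a family do not depend on the scaling between libraries. *Dll4* made up 70.7%, 73.0% and 70.8% of the summed level per kilobase of the 3 ligands in VEC-null and 40.7%, 40.0% and 37.5% in VEC-positive. The share of *Jag1* was 26.4%, 25.0% and 26.5% in VEC-null and 55.8%, 57.1% and 59.7% in VEC-positive. *Jag1* was therefore the smaller of the 2 ligands in every VEC-null library and the larger in every VEC-positive library. Each of these differences had p = 0.1 in an exact two-sided permutation test, the smallest p that 3 libraries against 3 can give, which was computed for 10 shares and is given unadjusted. In sum the 3 ligands were at 235 ± 12.5 per kilobase in VEC-null, against 230 ± 6.65 in VEC-positive (SD, n = 3 each, exact permutation p = 0.7). Unlike the shares, such sums depend on the scaling between libraries, and 3 libraries against 3 cannot give a p under 0.1.

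Among the receptors, the share of *Notch1* was 52.1% ± 0.385 in VEC-null, against 58.6% ± 1.69 in VEC-positive (SD, n = 3 each). That of *Notch4* was 44.2% ± 0.464 in VEC-null, against 36.3% ± 2.55 in VEC-positive (SD, n = 3 each). Both pairs of groups did not overlap (exact permutation p = 0.1). *Notch1* and *Notch4* together thus made up most of the receptor level in either group, and *Notch3* only 0.162% and 1.57% on average. The share of *Notch2* was 3.48% and 3.53% (exact permutation p = 1). The summed receptor levels of 208 ± 14.3 and 216 ± 15.4 per kilobase (SD, n = 3 each) overlapped (exact permutation p = 0.5).

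Of the targets, *Hey1* made up 14.3% ± 1.44 of the summed level in VEC-null, against 2.42% ± 0.912 in VEC-positive (SD, n = 3 each), and *Hes1* 85.7% ± 1.44 against 97.0% ± 1.14 (SD, n = 3 each). *Hes1* was the main transcript of the 3 in every library. These groups did not overlap (exact permutation p = 0.1).

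**Figure D3:**
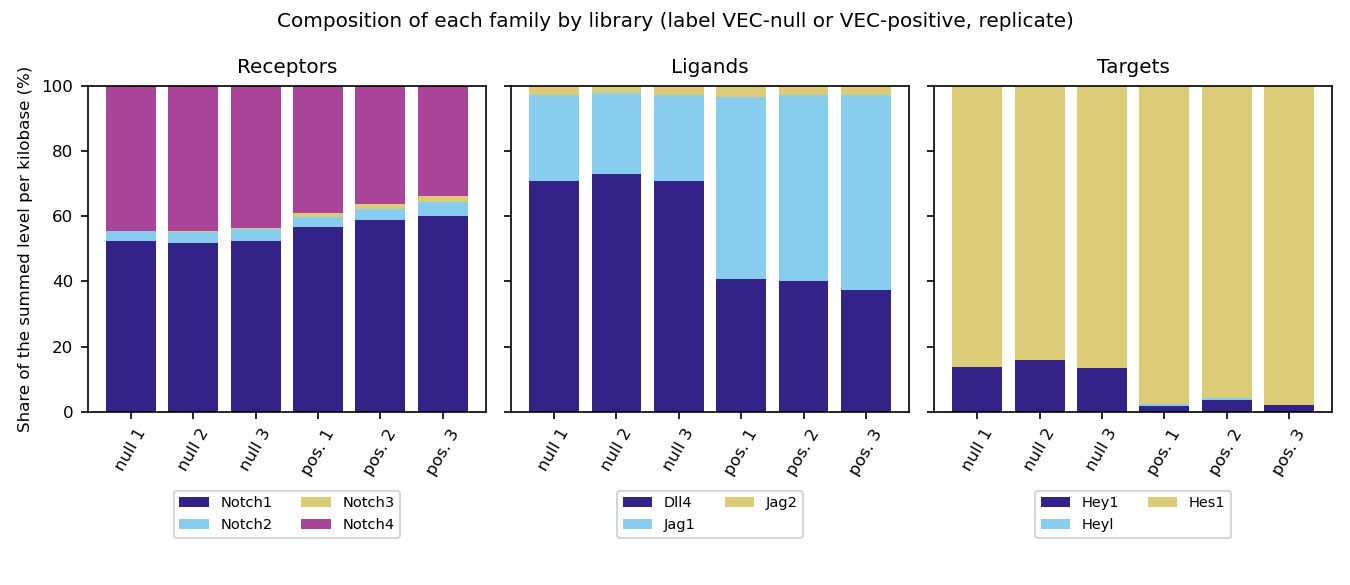
Share of each gene in the summed level per kilobase of its family (y axis, percent) in each library, for the 4 receptors, the 3 ligands and the 3 targets. *Dll4* takes 70.7% to 73.0% of the ligand sum in the VEC-null libraries and 37.5% to 40.7% in the VEC-positive libraries, with *Jag1* filling most of the remainder.

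The ligand sum above leaves out *Dll1*, a delta-like ligand that was not among the 10 genes and had a higher level per kilobase than any of them. *Dll1* had 1034, 932.4 and 1024 normalized counts in VEC-null, against 1783, 1810 and 1756 in VEC-positive, and rose with a log2 fold change of 0.84 (SE 0.07, adjusted p = 7.3e-05 from limma). With *Dll1* in the sum, a choice made after its values were seen, *Dll4* had a share of 35.6% in VEC-null and 13.9% in VEC-positive, and *Jag1* 12.9% and 20.3%. The sum of the 4 ligands was then 471 ± 20.8 and 652 ± 7.50 per kilobase (SD, n = 3 each, exact permutation p = 0.1).

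A further 70 genes of the pathway were listed by their role, of which 65 were in the table and 56 were tested. Of these, 14 were higher in VEC-positive, 7 lower and 35 did not pass, with a median log2 fold change of 0.12. The 21 that passed are 37.5% of those tested, where the rate of all genes would give 20.9. The counts of each role below stand beside the same shares of all tested genes, of which 37.3% passed, 20.9% higher and 16.4% lower. With equal totals 7 were higher and 19 lower, the latter with *Snw1* (-0.28), *Ncor1* (-0.25) and *Hdac1* (-0.23), whose values with the deposited scaling are given below. Leaving out VEC-positive 1, 2 or 3 gave 9 higher each time, and leaving out VEC-positive 2 gave 4 lower. Calls fell among all 14032 tested genes as well, to 2111, 2111 and 2245 higher in these fits, against 2927 with every library. Without VEC-positive 2, 1636 of all genes were lower, against 2304.

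*Mfng* encodes Manic fringe, a glycosyltransferase that adds sugars to the extracellular part of Notch and shifts its preference between delta-like and jagged ligands. It was at 101.0, 108.7 and 113.5 normalized counts in VEC-null, against 20.99, 11.69 and 9.68 in VEC-positive, a fall of 2.92 on the log2 scale (SE 0.29, adjusted p = 0.000166 from limma). It was the only 1 of 5 tested glycosyltransferases to pass, and *Pofut1* (log2 fold change 0.08) and *Poglut1* (0.14), which add the first sugars, did not. *Neurl1b*, a ubiquitin ligase that drives uptake of ligands, rose between means of 269.1 ± 10.5 and 523.9 ± 8.29 (SD, n = 3 each), with a log2 fold change of 0.96 (adjusted p = 7.11e-05 from limma). *Mib1* and *Mib2*, ubiquitin ligases with the same role, had log2 fold changes of 0.24 and 0.15 and did not pass, although *Mib1* did without VEC-null 3 (0.34, adjusted p = 0.00155 from limma). Of the other ligands and ligand-like proteins, 2 of 3 tested were higher, and *Egfl7*, a secreted endothelial protein that binds Notch, did not pass (0.28, adjusted p = 0.0735 from limma) except without VEC-null 2 (0.39, adjusted p = 0.0172 from limma).

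Of 9 tested genes of receptor cleavage, *Adam10*, which makes the first cut after ligand binding, rose with a log2 fold change of 0.59 (adjusted p = 0.00306 from limma). *Ncstn*, which encodes nicastrin, a subunit of gamma-secretase, fell (log2 fold change -0.39, adjusted p = 0.0146 from limma). That call was lost in 3 of 18 alternatives, among them leaving out VEC-positive 2 (adjusted p = 0.0558 from limma) and leaving out VEC-positive 3 (adjusted p = 0.0592 from limma). The proteases *Furin* (0.05) and *Adam17* (0.26) did not pass, though *Adam17* did without VEC-null 3 (0.37, adjusted p = 0.00267 from limma).

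In the nucleus, *Rbpj* itself was at 690.1, 599.3 and 788.2 normalized counts in VEC-null, against 776.8, 771.5 and 678.7 in VEC-positive. The groups overlapped (log2 fold change 0.11, 95% interval -0.16 to 0.37, adjusted p = 0.498 from limma), and with equal totals the sign turned (-0.20). The coactivators *Maml3* (0.50), *Ep300* (0.29) and *Crebbp* (0.24) passed as higher and 5 other genes of the complex did not pass, *Snw1* (0.03) among them. All 3 calls were lost with equal totals, where the log2 fold changes were 0.19, -0.02 and -0.07. *Maml3* was also lost without VEC-null 1 or VEC-positive 3 (adjusted p = 0.0625 and 0.0726 from limma), *Crebbp* without any 1 of the VEC-positive libraries (adjusted p = 0.0619 to 0.0723 from limma) and *Ep300* without any 1 library other than VEC-null 3 (adjusted p = 0.0647 to 0.114 from limma). Among 12 tested corepressors 3 were higher and 2 lower, where 20.9% and 16.4% of all tested genes were. *Tle2*, of the Groucho family that Hes and Hey proteins recruit, rose between means of 44.2 ± 16.2 and 162.0 ± 19.0 normalized counts (SD, n = 3 each) (log2 fold change 1.91, adjusted p = 0.00104 from limma), *Tle4* rose (0.49, but 0.18 and not past the test with equal totals) and *L3mbtl3*, a chromatin protein that binds RBPJ, fell (-0.41). *Tle1* passed as lower (-0.50, adjusted p = 0.0435 from limma) but was lost in 8 of 18 alternatives, among them leaving out any 1 library other than VEC-null 1 (adjusted p = 0.0566 to 0.134 from limma), and *Ncor1* (0.06) and *Hdac1* (0.08) did not pass.

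*Nrarp* is a feedback inhibitor that Notch itself induces. It fell from 677.8, 613.5 and 648.1 normalized counts in VEC-null to 263.6, 311.7 and 317.9 in VEC-positive, with a log2 fold change of -1.12 (SE 0.10, adjusted p = 9.29e-05 from limma). *Numb*, which promotes removal of Notch from the cell surface, was at 885.9, 856.0 and 913.2 in VEC-null, against 2101, 2074 and 1922 in VEC-positive, with a log2 fold change of 1.20 (SE 0.07, adjusted p = 1.21e-05 from limma). Both passed in all 18 alternatives and neither pair of groups overlapped. *Dtx3* (0.82), of the Deltex family, and *Fbxw7* (0.40), the ubiquitin ligase that degrades the Notch intracellular domain, were higher as well, the latter not with equal totals (0.09). Of the 12 tested genes of turnover 8 did not pass, among them *Nedd4* (0.06) and *Sel1l* (-0.33). *Sel1l* passed as lower without VEC-null 1 (-0.49, adjusted p = 0.0476 from limma) and with equal totals (-0.64, adjusted p = 0.0158 from limma).

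Among 4 tested relatives of the targets, *Bhlhe40* fell (-0.48, adjusted p = 0.00911 from limma), 1 was higher and *Hes6* (-0.58) and *Hes7* (-0.84) did not pass. Without VEC-null 3 both passed as lower (*Hes6* in 4 of 18 alternatives in all), *Hes6* at -0.75 (adjusted p = 0.00795 from limma) and *Hes7* at -1.50 (adjusted p = 0.00277 from limma). *Hey2*, the closest relative of *Hey1*, was at 0 to 7.09 normalized counts over the 6 libraries and below the limit for testing.

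Genes known from arterial endothelium were split, with 4 of 10 tested higher, 5 lower and 1 not past the test and a median log2 fold change of -0.54, and *Jag1*, *Dll4* and *Hey1* are themselves on that list. Of all tested genes 37.3% passed. *Gja1*, the gene of the gap junction protein connexin 43, was down from 2520 VEC-null reads to 2 VEC-positive reads (ratio 0.000775, 95% counting interval 9.39e-05 to 0.0028), whereas *Acvrl1*, an endothelial receptor of the BMP pathway, rose with a log2 fold change of 3.04 (SE 0.09, adjusted p = 5.41e-07 from limma), and *Unc5b*, a guidance receptor, with 1.02 (SE 0.10, adjusted p = 0.000166 from limma). *Nrp1*, a coreceptor for VEGF, did not pass (-0.20, adjusted p = 0.126 from limma). It passed as lower with equal totals (-0.51, adjusted p = 0.00181 from limma) and with totals made equal without mitochondrial transcripts (-0.34, adjusted p = 0.0286 from limma). *Gja4* (-2.38, 248 VEC-null and 52 VEC-positive reads) and *Gja5* (-3.02, 62 and 6 reads), also connexin genes, were lower. *Efnb2* (0.39) was higher. *Gja4*, *Gja5* and *Efnb2* were named after their values were seen. All 7 listed genes of venous endothelium passed, 5 higher and 2 lower, with a median of 0.52, against the same 37.3%. The 15 endothelial markers, which share *Emcn* with this list, had the same median of 0.52, with 10 higher and 1 lower. The largest rises were those of *Aplnr* (2.83), the apelin receptor, and *Vwf* (2.12), von Willebrand factor, while *Nr2f2* (0.53), the transcription factor of venous identity, and *Emcn* (0.52), a sialomucin, rose less. *Flt4* (-0.48), the receptor VEGFR3, and *Nrp2* (-0.35), its coreceptor, named after their values were seen, were lower. *Nr2f2* did not pass with equal totals (0.22, adjusted p = 0.104 from limma). The study chose *Vwf* on these libraries, so its direction is not independent evidence. It also measured *Vwf* by quantitative PCR, among the genes it lists as induced by VEC, and followed it up by further experiments, among them chromatin immunoprecipitation at its start site.

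**Figure D4:**
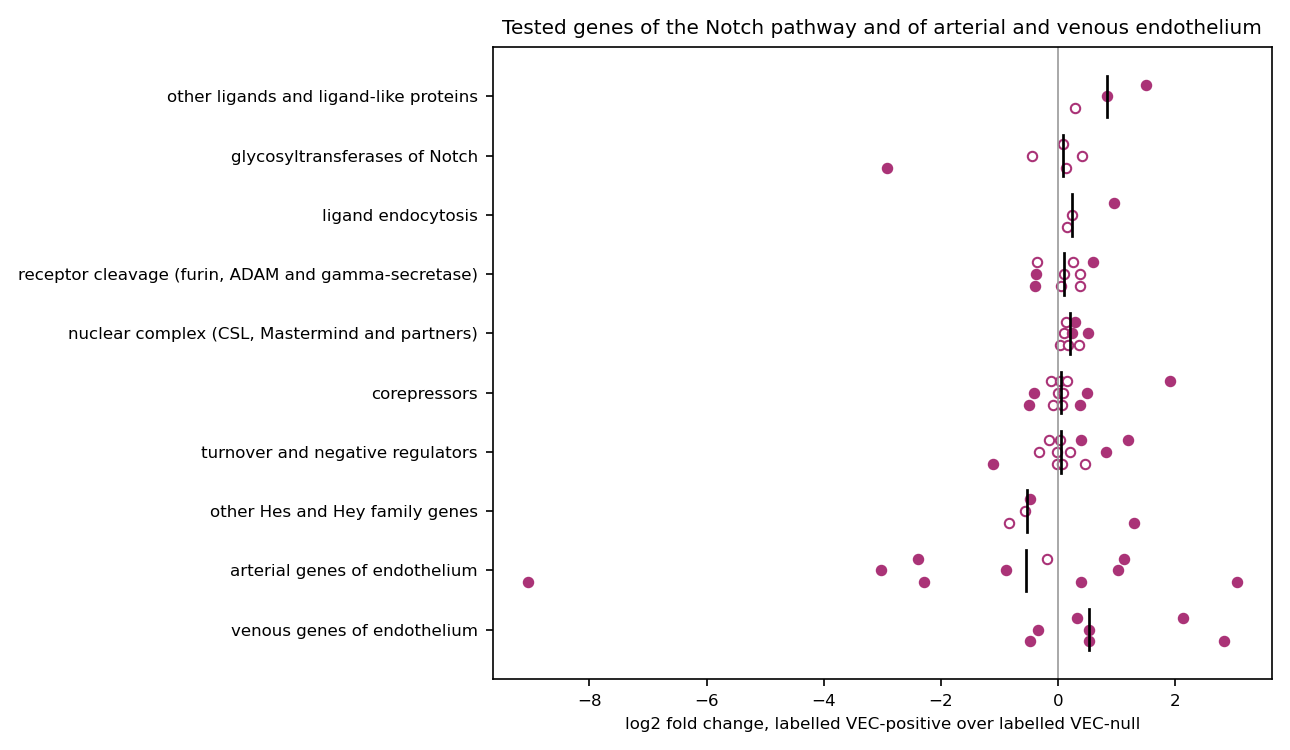
Log2 fold change, VEC-positive relative to VEC-null (x axis), for each tested gene of 8 lists of pathway genes and of the arterial and venous lists (y axis); filled circles passed the adjusted p of 0.05, open circles did not, and the vertical bar is the median of the list. Most circles of the pathway lists lie near 0, with *Mfng* at -2.92 and *Tle2* at 1.91 farthest from it, and the arterial genes spread from *Gja1* at -9.05 to *Acvrl1* at 3.04.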

How the data were processed

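Total RNA of 3 VEC-null and 3 VEC-positive libraries, grouped by their labels, was sequenced. Per the labels, the authors used Trim Galore, TopHat2 2.1.1, DESeq2 1.14 and mm10. The sources used here do not name the counting program or annotation. The deposited signal values are gene counts that the authors divided by 1 size factor per library, since whole reads were recovered from 100% of values within 0.01 of a read. PCR duplicates count as reads, so counting intervals and floors (3 reads over a group) cover counting error only.

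Genes that reached a normalized count of 10 in 3 or more libraries entered the test as log2(value + pseudocount), the pseudocount being 1, and fold changes of low genes are understated on that scale. The two-sided test was limma 3.58.1 run in R 4.3.3 with its mean-variance trend and Benjamini-Hochberg adjustment over all tested genes, at 0.05. Shares were compared by exact permutation tests. Symbols, positions and exon lengths of 23908 genes came from GENCODE M21.

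The members and lists were chosen with earlier results of these data known. All 10 members and *Rbpj* are named, and from each list at most 4 genes that passed with a mean of at least 50 (largest changes first) and 2 that did not (highest means). An item that this rule draws is not reported here. *Cdh5* is named as the targeted gene, *Cldn5* and *Ptprb* beside it, and *Hey2* as a relative of *Hey1*. *Flt4*, *Nrp2*, *Gja4*, *Gja5* and *Efnb2* complete counts, mural genes stand beside *Notch3*, and fibroblast and blood genes with their lists. All of these but *Cdh5* were named after their values were seen.

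There were 18 alternatives: 2 pseudocounts, no filter and a stricter filter (50), 3 scalings, limma without trend and robust, a block for the replicate number, recovered reads in edgeR 4.0.16 and in DESeq2 1.42.0, and each library left out in turn. The fits were tested on simulated data. Markers of fibroblasts (7 in the table), pluripotent cells (4) and blood (7) were also read. None of the 3 fibroblast markers that were tested passed, and of the 3 tested blood markers 1, *Runx1*, was higher. No pluripotent marker was tested, and 4 markers of each of these lists were below the limit for testing. Among them, the fibroblast genes *Dpt*, *Fap*, *Col1a1* and *Dcn* had 0, 0, 9 and 2 VEC-null reads, against 26, 17, 58 and 10 VEC-positive reads. Only for *Dcn* did the groups overlap.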

Additional observations from a re-analysis of the deposited data

How the results depend on the processing

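Under the 18 alternatives *Dll4*, *Jag1* and *Hey1* kept their direction and passed each time, and *Notch3* did so in the 17 that tested it, since the stricter filter leaves it out. Scaling to equal totals turned the log2 fold change of *Notch1* to -0.087, of *Notch2* to -0.239 and of *Jag2* to -0.054. *Notch2* was also at -0.075 with totals made equal without mitochondrial transcripts, and leaving out 1 library put it between -0.105 (without VEC-positive 3) and 0.176 (without VEC-null 3), with -0.034 without VEC-null 1. *Heyl*, tested only without a filter, was at 2.43 on the log2 scale (adjusted p = 0.013 from limma). With equal totals 1553 of all genes were higher and 5000 lower, and of the other pathway genes 7 were higher and 19 lower. Leaving out 1 library gave 9 to 19 of the other pathway genes higher and 4 to 9 lower. Of all genes it gave 2111 to 3800 higher and 1585 to 3359 lower.

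The replicate numbers were not taken to pair the libraries, since deviations of same-numbered libraries correlated at 0.08, -0.33 and -0.29 across genes. The fit with the replicate number as a block gave 3 higher and 2 lower members, as without it. Of the other pathway genes it gave 11 higher and 4 lower, where *Ncstn* was no longer called (adjusted p = 0.0515 from limma). Among all genes it gave 2400 higher and 1744 lower, against 2927 and 2304 without the block.

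The difference in the share of *Notch3* among the receptors (percentage points, VEC-positive minus VEC-null) was 1.03 with the longest transcript and 0.963 without division by length, against 1.41. Without division by length those of *Hey1*, *Heyl* and *Hes1* among the targets were -17.4, 1.3 and 16.1. With *Dll1* in the sum, added after the data were seen, those of *Dll4*, *Jag1* and *Jag2* were -21.8, 7.33 and -0.18. Reads limit *Notch3* in VEC-null, *Heyl* in both groups and *Hey1* in VEC-positive, and the cause of these changes was not tested.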
